A study of Homo sapiens with 4 samples.

Results

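PMAIP1 encodes NOXA, a small pro-apoptotic protein of the BCL2 family, and was examined together with 9 other genes of that family in LNCaP cells given extra MED1. The genes were the BH3-only genes PMAIP1, BBC3, BCL2L11, BID and BAD, the effectors BAX and BAK1, and the pro-survival genes BCL2, BCL2L1 and MCL1. Every row of the deposited value table whose platform annotation named 1 of these genes alone was used, which gave 23 probe sets of 22215. They covered 9 of the 10 genes. The 1 probe set that names BBC3 (PUMA) names 2 microRNA genes as well, so BBC3 was not analysed here. PMAIP1 was chosen because 1 of its probe sets had already been seen to differ between the groups compared here, so its values, and those of its relatives in the same contrast, are a description and nothing is rested on their calls.

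LNCaP cells, a line from a human prostate cancer that responds to androgen, were grown in RPMI-1640 with 10% fetal bovine serum. Cells were transfected with Lipofectamine for 24 hours, either with an empty vector or with one that expresses MED1. MED1 belongs to Mediator, the complex through which transcription factors reach RNA polymerase II. Total RNA of 200 ng per sample was hybridised to Affymetrix arrays, with 2 samples in each group. The share of cells that took up a vector is not given in the sources used here, and in bulk RNA fewer expressing cells and less RNA per cell cannot be told apart. The description field of the empty vector samples repeats that of the MED1 samples. Their titles, source names and transfection labels say empty vector, and were followed.

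The BCL2 family sets whether the outer mitochondrial membrane stays intact. Pro-survival proteins such as BCL2, BCL-xL (from BCL2L1) and MCL1 hold the effectors BAX and BAK in check. BH3-only proteins are made or activated under stress and release that hold by binding the pro-survival proteins, and NOXA binds MCL1 above all. PMAIP1 is known as a target of p53 and, under amino acid or endoplasmic reticulum stress, of the transcription factors ATF4, ATF3 and CHOP.

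The upstream sequence of PMAIP1 is shown because, of those factors, ATF4 and ATF3 can act through sites of the cAMP response element (CRE) kind. It is the 250 bases before the RefSeq start site (GRCh38.p14, chr18:59899746-59899995, plus strand), written 5′ to 3′. The capitals mark the only match to the CRE core TGACGT, which lies on the minus strand and so reads ACGTCA here.

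PMAIP1: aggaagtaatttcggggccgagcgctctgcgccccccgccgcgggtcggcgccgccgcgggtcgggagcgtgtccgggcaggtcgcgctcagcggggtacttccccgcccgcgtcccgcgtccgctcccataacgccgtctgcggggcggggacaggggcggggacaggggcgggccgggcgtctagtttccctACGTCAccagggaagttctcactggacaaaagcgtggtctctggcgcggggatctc

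The match begins 56 bases before the start site. TGACGT, searched on both strands, was found in 7.10% of 35116 RefSeq promoter entries over the same 250 bases. By gene, with any entry of a gene counted, it was found in 8.62% of 27305 genes. Of the 9 family genes with an entry, 2 held it, PMAIP1 and BAD, and MCL1 had no entry. The windows around both matches are set side by side, with the core in capitals, each on the plus or minus strand of its own gene (BAD at chr11:64284744-64284767, minus strand, 54 bases before its start).

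PMAIP1: agtttccctACGTCAccagggaag

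BAD: ctacccgagTGACGTtccgagagg

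The full palindrome TGACGTCA, which contains the core, was in 0 of these 9 genes and in 1.65% of all entries (2.03% of genes). The C/EBP-ATF composite letters TGATGNAA, searched on both strands, were likewise in 0 of the 9 and in 3.14% of all entries (3.89% of genes). The GC box GGGCGG, also searched on both strands, matched 4 times upstream of PMAIP1, and 42.6% of all entries held at least 1. It was not particular to PMAIP1. The most in any entry was also 4 for BID, 3 for BCL2L11, 2 for BAK1, and 1 for BAX and BAD. BBC3, BCL2 and BCL2L1 held 0. The PMAIP1 window was 72.8% G or C, where the median of all entries was 58.0%. The letters searched were chosen after the PMAIP1 sequence had been looked at, so its match is a description of that window. Such matches describe letters and do not show that a factor binds.

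The values are MAS5 signals, a linear intensity per probe set and array in arbitrary units. Fold changes are MED1 minus empty vector on the log2(signal + 16) scale, from limma fitted to 13329 probe sets, and the pseudocount of 16 shrinks changes of weak signals. A probe set is called when its Benjamini-Hochberg adjusted p is under 0.05. Median signals of the arrays ran from 77.4 to 83.2. Of 2 MED1 probe sets, 203496_s_at read 559 and 807 with the MED1 vector against 292 and 315 with the empty vector, while 203497_at read 1172 and 1074 against 1097 and 1011 and overlapped. Each of the 6 luminal prostate marker genes measured was above the filter on dim probe sets (a signal of 31.0), with signals from 167 to 8663. Their summed signal was 21512 to 22894 in the MED1 samples and 22390 to 24668 in the empty vector samples. For 7 marker genes of leukocytes, endothelium, fibroblasts and basal cells the sum was 281 to 397 and 271 to 349, and 2 of the 7 were above the filter; their part in the results was not tested.

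PMAIP1 RNA was lower in both samples given MED1, by both of its probe sets. The brighter one, 204285_s_at, read 529 and 629 with MED1 against 1163 and 1073 with the empty vector (579 ± 70.3 against 1118 ± 63.9; SD, n = 2). The dimmer one, 204286_s_at, read 326 and 393 against 588 and 619 (359 ± 47.8 against 603 ± 22.1). The groups did not overlap on either probe set, and the lowest signal of each lay in MED1 replicate 1. The log2 fold change was -0.93 ± 0.11 (SE; 95% interval -1.19 to -0.68) for the brighter probe set, a level of 52.3% of the empty vector on that scale. It was -0.73 ± 0.13 (-1.01 to -0.45) for the dimmer one, a level of 60.4%. Taken array by array, a MED1 sample held 45.5% to 58.6% of the signal of an empty vector sample on the brighter probe set and 52.6% to 66.9% on the dimmer one.

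The brighter PMAIP1 probe set was called and the dimmer one was not. Among the 13329 probe sets tested they ranked 34 and 85 from the most negative fold change. Calls were 0.188% of all tested probe sets in the lower direction, 0.105% in the higher and 0.293% in both, and since this contrast chose the gene, nothing is read from its own call. The dimmer probe set was called without MED1 replicate 2 (log2 fold change -0.86), and the brighter one lost its call when dim probe sets were kept in and when the variance model had no intensity trend.

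The probe sets of PMAIP1 gave changes of unequal size with overlapping intervals. The log2 ratio of the brighter to the dimmer was 0.67 and 0.66 with MED1 against 0.97 and 0.78 with the empty vector. The ratio was thus lower in both MED1 samples, by 0.21 on average. The SD of the empty vector samples was 0.13, and the gap between their 2 ratios was nearly as large as that difference. Both names end in _s_at, which on this type of array marks probes shared by several transcripts.

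**Figure D1:**
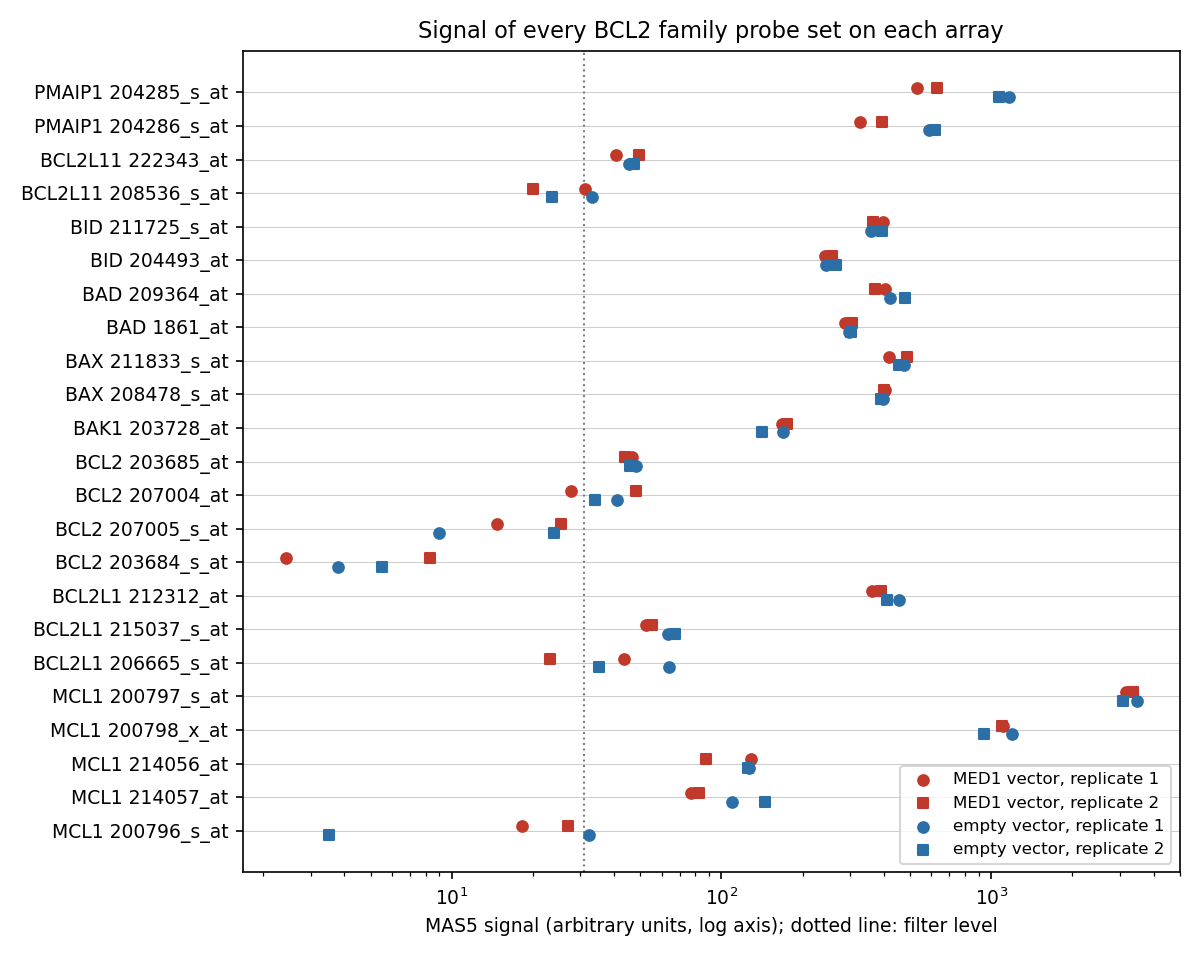
MAS5 signal (log axis) of all 23 BCL2 family probe sets on each of the 4 arrays; red is the MED1 vector, blue the empty vector, circles replicate 1 and squares replicate 2, and the dotted line is the filter level of 31.0. The red points lie clear of the blue ones on both PMAIP1 probe sets, at 529 and 629 against 1163 and 1073 on the brighter one.

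Among the other family members no probe set was called (limma, 0 of 17 tested). An unadjusted p under 0.05 was reached by 1 of the 17, or 5.88%, where the share of all tested probe sets was 9.2%. In all, 19 of the 23 probe sets passed the filter, and each of the 9 genes had at least 1. Of the 17 that do not belong to PMAIP1, 13 (76.5%) had a negative fold change with the deposited scaling, against 53.5% of all tested probe sets. The count was 6 of 17 (35.3%) when each array was centred on its median, against 41.5% of all, and 8 of 17 (47.1%) after quantile normalization, against 50.3%, so the excess was not kept. The 2 PMAIP1 probe sets were negative under each of these scalings, which is no result, as the gene was chosen by this contrast. Both MED1 samples lay below both empty vector samples on 4 of the 17, or 23.5%, near the 22.6% of all tested probe sets. Both lay above on 1 of the 17, 208478_s_at of BAX, where the share of all was 17.2%. The median of the 17 was -0.03, and of all tested probe sets -0.02.

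The other BH3-only genes are activators or sensitisers that respond to different stresses. BID, which caspase-8 cleaves to link death receptors to mitochondria, read 396 and 366 with MED1 against 359 and 395 with the empty vector by its brighter probe set. Its second probe set read 243 and 258 against 244 and 266. The groups overlapped on both, with log2 fold changes of 0.01 ± 0.12 (95% interval -0.26 to 0.29) and -0.03 ± 0.13 (-0.33 to 0.28).

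BAD, which growth factor signalling keeps inactive by phosphorylation, differed between its probe sets. The brighter one, 209364_at, read 404 and 370 with MED1 against 421 and 480 with the empty vector, lower without overlap but not called (-0.21 ± 0.12; -0.49 to 0.07). The other, 1861_at, read 288 and 304 against 298 and 303 and overlapped (-0.02 ± 0.12).

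BCL2L11, which encodes BIM, gave low signals throughout. Its brighter probe set read 40.6 and 49.4 with MED1 against 45.3 and 47.4 with the empty vector (-0.03 ± 0.24; -0.57 to 0.50), and the groups overlapped. The second, with 31.2 and 20.1 against 33.2 and 23.6, fell under the filter.

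The effectors BAX and BAK1 form the pores that release cytochrome c, and both groups gave similar signals for them. BAX read 417 and 486 with MED1 against 475 and 453 with the empty vector by 211833_s_at, and 403 and 400 against 397 and 391 by 208478_s_at. BAK1 read 168 and 175 against 169 and 141. Log2 fold changes were -0.04 ± 0.12 and 0.03 ± 0.11 for BAX and 0.13 ± 0.16 for BAK1, with intervals that together ran from -0.31 to 0.50. None was called, and the 3 intervals all excluded a fall to 50% of the control, a log2 value of -1.

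The pro-survival genes include MCL1, the main partner of NOXA and a protein of rapid turnover. Its brightest probe set, 200797_s_at, read 3155 and 3343 with MED1 against 3478 and 3082 with the empty vector, and the groups overlapped (-0.01 ± 0.10; -0.24 to 0.21). The next, 200798_x_at, read 1104 and 1093 against 1199 and 940 (0.05 ± 0.12), and it moved between -0.13 and 0.22 as empty vector replicates were left out. Signals near a level of 100 were less even.

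MCL1 probe set 214057_at read 77.1 and 82.5 with MED1 against 110 and 146 with the empty vector, lower without overlap. Its log2 fold change of -0.57 ± 0.20 (95% interval -1.02 to -0.13) was the largest among members other than PMAIP1, was not called, and was the 1 value with an unadjusted p under 0.05. On 214056_at the signals were 128 and 88.0 against 127 and 125 (-0.22 ± 0.20), with -0.45 without MED1 replicate 1 and 0.02 without MED1 replicate 2. The dim set 200796_s_at, at 18.1 and 26.9 against 32.2 and 3.50, was not tested. The MCL1 probe sets thus disagreed, with the brightest pair near 0 and 1 dimmer set lower.

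BCL2L1 lay lower in the MED1 samples on each of its 3 probe sets, none of them called. The brightest, 212312_at, read 362 and 391 with MED1 against 454 and 412 with the empty vector, without overlap (-0.19 ± 0.12; -0.46 to 0.08). The second, 215037_s_at, read 52.7 and 55.0 against 63.3 and 67.5 (-0.22 ± 0.21), and the third, 206665_s_at, 43.4 and 23.1 against 63.7 and 35.1, with overlap (-0.40 ± 0.32). The third moved between -0.73 and -0.08 as empty vector replicates were left out.

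BCL2 itself gave dim signals in these cells by all of its 4 probe sets, between 2.42 and 48.2. The brightest read 46.6 and 44.0 with MED1 against 48.2 and 45.8 with the empty vector (-0.04 ± 0.23; -0.56 to 0.48). The second read 27.6 and 48.1 against 40.9 and 33.8 (-0.01 ± 0.28; -0.65 to 0.63). The groups overlapped on all 4. With no detection calls, whether such signals differ from background was not tested.

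**Figure D2:**
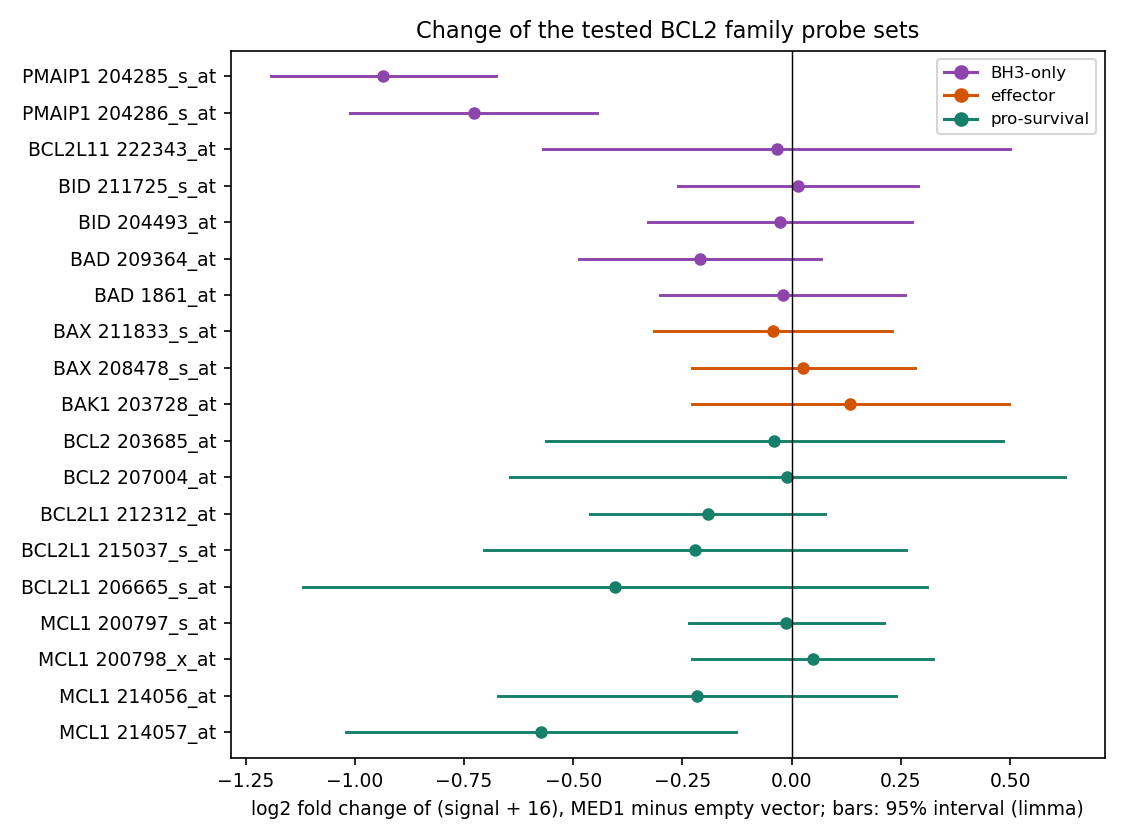
Log2 fold change of signal + 16 (MED1 minus empty vector) of the 19 tested probe sets, with limma's 95% intervals; colour gives the role. The PMAIP1 points lie at -0.93 and -0.73, and MCL1 214057_at at -0.57 is the only other whose interval leaves out 0.

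The PMAIP1 RNA signal was also set against that of other family members as a within-array log2 ratio, which depends little on the scaling of an array. Ratios of different probe sets are not ratios of transcript numbers, so only their change between arrays is informative. The ratios were added after the values had been seen. The ratio of the brighter PMAIP1 probe set to the brightest MCL1 set was -2.54 and -2.38 with MED1 against -1.57 and -1.51 with the empty vector. It was lower in both MED1 samples, by 0.92 on average.

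Against BCL2L1 the ratio was 0.53 and 0.66 with MED1 against 1.33 and 1.35 with the empty vector, a mean difference of -0.74, where the BCL2L1 set alone gave -0.19. Against BAX it was 0.33 and 0.36 against 1.26 and 1.21, and against BAK1 1.57 and 1.76 against 2.67 and 2.79. The mean differences were -0.89 and -1.07. Against BID and BAD they were -0.95 and -0.73. In each of the 6 ratios both MED1 samples lay below both empty vector samples, and the same held with the dimmer PMAIP1 set, whose differences ran from -0.86 for BAK1 to -0.52 for BAD. All 6 share the PMAIP1 signal, so they are not independent of its lower signal. Separation was not particular to ratios with PMAIP1: MCL1 over BAK1 and BCL2L1 over BAX were also lower in both MED1 samples, each by 0.15 on average.

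**Figure D3:**
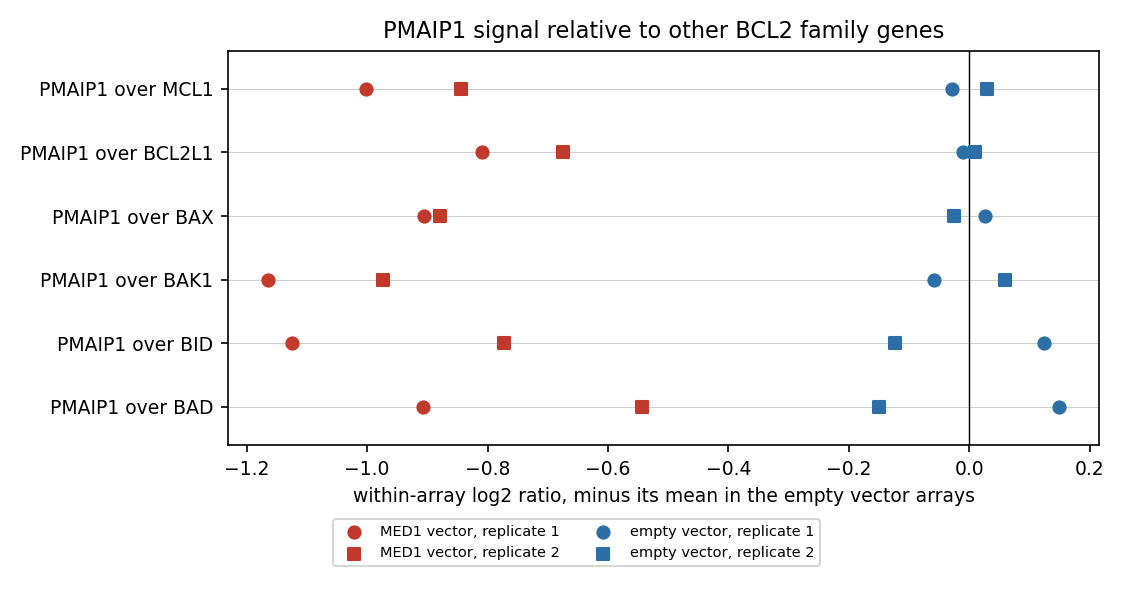
Within-array log2 ratio of the brighter PMAIP1 probe set to the brightest probe set of 6 other members, shifted so that the empty vector mean is 0; red is the MED1 vector, blue the empty vector. Both MED1 samples lie left of both empty vector samples in each row, with mean differences from -1.07 for BAK1 to -0.73 for BAD.

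The rest of the apoptosis pathway was read from 6 lists of 64 genes chosen by function. Of these, 53 were analysed and 43 had a brightest probe set above the filter. In the MED1 samples 1 of the 43 was called lower and 0 higher (limma), where calls were 0.293% of all tested probe sets. By sign alone, 26 of the 43 were negative and 17 positive, where 53.5% of all tested probe sets were negative. At an unadjusted p under 0.05, 3 were lower and 3 higher, together 14.0% of the 43 against 9.2% of all tested probe sets. Counted by probe set, as the latter share is, the lists held 9 of 79, or 11.4%. The 3 lower genes were DDIT3, ATF3 and ATF4. The lists were chosen with earlier results of these data known, so nothing is read from these shares. The median log2 fold change was -0.0232 for the 43 and -0.0156 for all tested probe sets.

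The gene called lower was DDIT3, which encodes CHOP, in the list of transcription factors known to act on PMAIP1 or other BH3-only genes (1 of 9 called lower, 0 called higher, median -0.21). DDIT3 was already known to be lower here when the list was drawn up, so it is not independent evidence. It read 450 and 648 with MED1 against 1559 and 1564 with the empty vector, which gives -1.50 ± 0.15 on the log2 scale (limma, adjusted p = 0.00332). Its call was lost with dim probe sets kept in (adjusted p = 0.132) and without the intensity trend (adjusted p = 0.217; limma), at the same fold change. MED1 replicate 1 was the lower MED1 sample, as it was for PMAIP1. That order was also seen where the groups overlapped, as on 200797_s_at of MCL1, while 200798_x_at of MCL1 had the reverse. Its meaning was not tested.

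ATF3 and ATF4, stress factors that act on PMAIP1 with or ahead of CHOP, were lower without overlap but were not called. ATF3 read 555 and 703 with MED1 against 928 and 917 with the empty vector (-0.55 ± 0.12; limma adjusted p = 0.200). ATF4 read 6279 and 7944 against 10578 and 9798 (-0.53 ± 0.13; limma adjusted p = 0.238). Both were called without MED1 replicate 2 (limma adjusted p = 0.00282 for ATF3 and 0.00109 for ATF4) and with the replicate number as a block (limma adjusted p = 0.0211 and 0.00745). Over all alternatives limma's adjusted p reached 0.538 and 0.541 at most. FOXO1, a stress-responsive factor that acts on BH3-only genes, went the other way: 202724_s_at read 111 and 147 with MED1 against 90.7 and 79.2 with the empty vector. It was higher without overlap but was not called (0.51 ± 0.20; 95% interval 0.06 to 0.96), and was the 1 gene of the list higher at an unadjusted p under 0.05. Its second probe set, at 51.3 and 58.4 against 67.2 and 66.3, was lower without overlap (-0.23 ± 0.21), so the probe sets disagreed.

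No gene passed in the other 5 lists. In the list of enzymes that turn over MCL1 or NOXA, 0 of 7 passed with a median of -0.04 (limma; 2 were higher at an unadjusted p under 0.05). These were RNF7, a RING subunit of cullin ligases, at 1970 and 2183 in the MED1 samples against 1722 and 1546 (0.34 ± 0.10; limma adjusted p = 0.333), and MARCHF5, a ubiquitin ligase of the mitochondrial outer membrane, at 931 and 913 against 789 and 753 (0.25 ± 0.10; limma adjusted p = 0.470). Both were higher without overlap, and neither was called.

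Among 8 other BCL2 family and BNIP genes, each by its brightest probe set, 0 passed, with a median of -0.01 (limma; 0 at an unadjusted p under 0.05). BNIP1 gave 0.21 ± 0.16 and BCL2L13 -0.10 ± 0.11. BNIP3 and BNIP3L, mitophagy receptors related to the BH3-only proteins, were named after their values were seen. Their brightest probe sets gave 0.00473 ± 0.10 and -0.02 ± 0.11, while second ones, 201848_s_at and 221479_s_at, gave -0.37 ± 0.09 and -0.38 ± 0.09. Both second ones were lower without overlap, had an unadjusted p under 0.05 (limma) and were not called, so the probe sets of each gene disagreed.

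Further down the pathway, 0 of 8 apoptosome and caspase genes passed, with a median of 0.01. APAF1, the scaffold of the apoptosome, gave -0.33 ± 0.20 and DFFB, the nuclease that cuts DNA in dying cells, 0.26 ± 0.12. CASP6, an executioner caspase, gave 0.13 ± 0.16 by its brightest probe set and -0.36 ± 0.16 by 209790_s_at, at 190 and 246 against 266 and 300. The second was lower without overlap, had an unadjusted p under 0.05 and was not called. Of 5 IAP genes and antagonists 0 passed, with a median of -0.08. HTRA2, a mitochondrial protease, gave -0.16 ± 0.11 and BIRC5, which encodes survivin, -0.08 ± 0.10.

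Of 6 death receptor and adaptor genes 0 passed, with a median of -0.06. TNFRSF10B, the TRAIL receptor DR5 and a known CHOP target, read 3334 and 3022 in the MED1 samples against 2909 and 2568 in the empty vector samples, higher without overlap and not called (0.21 ± 0.10). Its 2 other tested probe sets were also higher without overlap (0.43 ± 0.20 and 0.14 ± 0.17, not called). TNFRSF1A, the TNF receptor, gave -0.23 ± 0.11. By their brightest probe sets, 0 genes of these 3 lists reached an unadjusted p under 0.05 (limma).

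**Figure D4:**
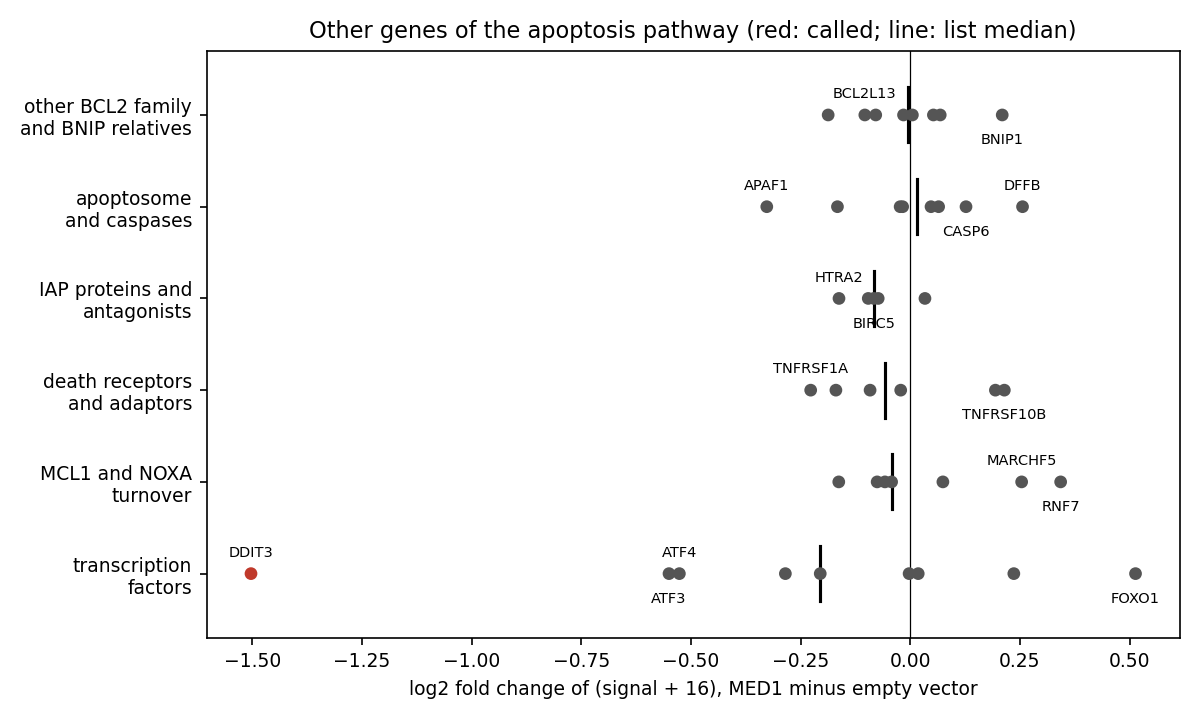
Log2 fold change of signal + 16 (MED1 minus empty vector) of the 43 tested genes in 6 pathway lists, each by its brightest probe set; black bars are list medians, red marks the called gene and names mark those given in the text, other than BNIP3 and BNIP3L near 0. DDIT3 at -1.50 stands far to the left, ATF3 and ATF4 lie at -0.55 and -0.53, and FOXO1 lies highest at 0.51.

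The probe sets whose pattern over the 4 arrays was nearest to that of PMAIP1 were found by the root mean square difference between log2 profiles, each centred on its own mean. Among 13328 other probe sets, the 5 nearest with a single gene name were those of TXNIP (0.0571), an inhibitor of thioredoxin, TBC1D2 (0.0624), a regulator of Rab GTPases, TSC22D3 (0.0789), a glucocorticoid-induced leucine zipper protein, CARS1 (0.0838), the cytosolic cysteinyl-tRNA synthetase, and STC2 (0.0845), a secreted glycoprotein. The second PMAIP1 probe set ranked 19 at 0.123. With 4 arrays this measure mostly reflects the size of the difference between the groups.

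TXNIP, the nearest, read 867 and 1075 with MED1 against 1775 and 1770 with the empty vector. CARS1 read 330 and 382 against 663 and 722, STC2 327 and 353 against 682 and 710, and TSC22D3 1056 and 1259 against 2281 and 2409. TBC1D2 was dim, at 18.7 and 25.9 against 57.7 and 47.1. Its MED1 signals lay under the filter level of 31.0, and it passed through the empty vector group. Since all 5 were picked for a profile like that of PMAIP1, their lower signals in the MED1 samples are fixed by the choice and are no result. None of the 5 genes held the CRE core TGACGT in the 250 bases before any of their listed RefSeq starts. Only 8.62% of all genes held it, so nothing is read from its absence in 5 genes.

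**Figure D5:**
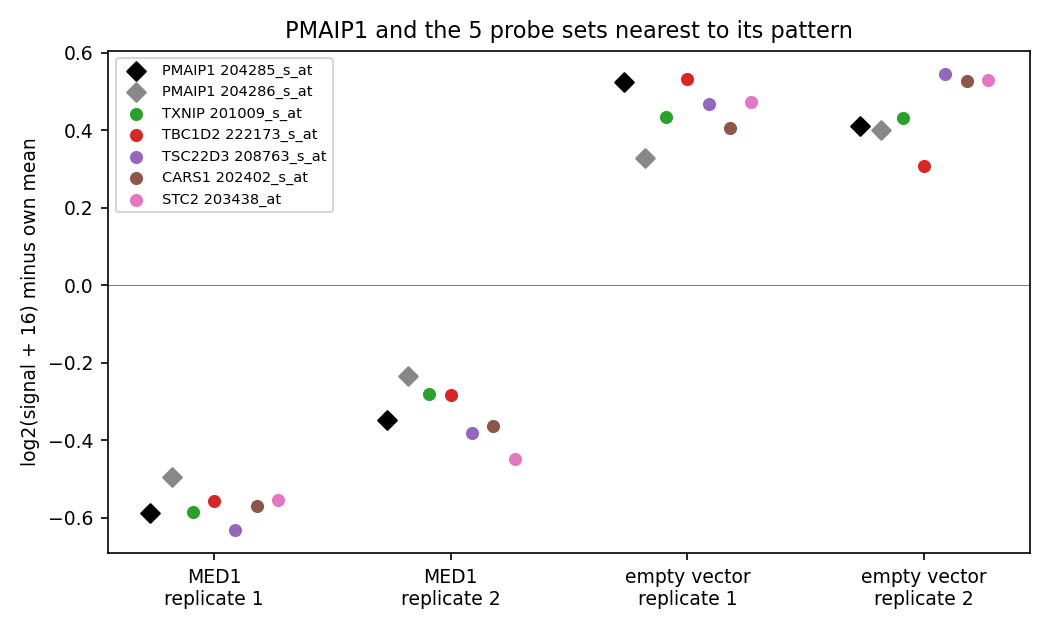
Log2(signal + 16) minus the probe set's own mean, on each array, for both PMAIP1 probe sets (black and grey diamonds) and the 5 nearest probe sets (circles). As the choice of probe sets fixes, all points are below 0 in the MED1 samples and above 0 in the empty vector samples, with PMAIP1's brighter set from -0.59 to 0.52.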

How the data were processed

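The authors deposited 1 MAS5 intensity for each probe set and array, on a linear scale, as the submitters' processing notes name MAS5 without a version. No other upstream step is given in the sources used here. MAS5 scales each array; the deposited signals had a mean of 500.2 on each array after trimming 2% at each end, and were not rescaled. Of 22277 probe sets, 62 controls were left out. Names came from the platform annotation, updated by Entrez identifier. Probe sets whose mean log2(signal + 16) lay under the 40th percentile were left out, leaving 13329. The percentile was tried in 3 forms, and this one was kept after the counts of calls had been seen, because it matched an earlier analysis of these data. The fit was made with limma 3.58.1 (R 4.3.3), using lmFit and eBayes with an intensity trend, and p-values were adjusted by Benjamini-Hochberg. SEs are limma's. The procedure was tested on simulated data.

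The members and lists were chosen with earlier results of these data known. List genes named are those called or, failing that, the 2 of lowest p per list, beside ATF3, ATF4, FOXO1, CASP6, BNIP3 and BNIP3L, exceptions named after their values were seen; the 5 nearest patterns were also named. Nothing says that duplicates came from separate cultures, so the spread may be technical. With 2 arrays against 2, an exact permutation test cannot go below p = 0.333. Arrays have no depth; their number limits precision. Alternatives covered pseudocount, scaling, filter, variance model, replicate block, averaged probe sets and each array left out.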

Additional observations from a re-analysis of the deposited data

How the results depend on the processing

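The brighter PMAIP1 probe set kept its direction under all 15 alternatives and its call except with no filter on dim probe sets (log2 fold change -0.93, limma adjusted p = 0.145) and without the variance trend (-0.93, 0.275); with an array left out it ran from -1.06 to -0.81, with adjusted p of 6.89e-07 to 0.275 over all alternatives. The dimmer one was called with robust eBayes (-0.73, adjusted p = 0.0485), with the replicate block (-0.73, 0.00515) and without MED1 replicate 2, and ran from -0.86 to -0.60 with an array left out (0.000712 to 0.402 over all alternatives). Called member probe sets numbered 0 with no filter and without the trend (3 at an unadjusted p under 0.05 in each), 2 with robust eBayes and with the block, and 1 to 2 with an array left out. Members other than PMAIP1 were never called. List genes called lower numbered 0 with no filter and without the trend, 3 with the block and 1 to 3 with an array left out. Over the whole table calls were 39, 0 with no filter (1680 of 22215 at an unadjusted p under 0.05), 5 without the trend, 239 with the block (including all 39), 94 and 216 without MED1 replicates 1 and 2, and 25 to 216 with any array left out. The cause was not tested. Filters on the mean signal and on the mean log2 signal without a pseudocount, added after seeing the data, each gave 41 calls, with the same calls for PMAIP1 (limma adjusted p = 0.0123 and 0.0103 for the brighter probe set, 0.0661 and 0.0648 for the dimmer), 1 member probe set and 1 list gene. Small values changed sign: BNIP3 201849_at with quantile normalization (-0.0257) and with an array left out (-0.0547 to 0.0642), BNIP3L 221478_at with centring (0.0365) and with an array left out (-0.15 to 0.12), and CASP6 211464_x_at with an array left out (-0.0252 to 0.28). Same-numbered samples share only a number (deviations correlated at 0.12 over 2 pairs). A lone sample is assumed to vary like the other group. Without detection calls, low signals have no known background.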
